A study of Homo sapiens with 8 samples.

Results

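The inhibitor of apoptosis genes BIRC2, BIRC3, XIAP, BIRC5 and BIRC6 were read from 15 probe sets of the 54613 that remained on the array after its controls were left out. A probe set is a group of short probes designed against a target transcript, and some also match other transcripts. XIAP had 7 probe sets, BIRC5 had 4, BIRC6 had 2, and BIRC2 and BIRC3 had 1 each. Of the 15, 14 were taken because the platform annotation gives them a single symbol from this family. The other carries no symbol in that annotation and was taken as BIRC3, the transcript it is known to target, so the BIRC3 signal rests on that assignment and on a single probe set. BIRC3 was chosen on its 10 h difference from untreated cells in these same arrays, and its values over time are therefore given as a description, with no test. The other 14 probe sets entered by gene family, and their comparisons carry the test over the whole array.

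RNA came from CCRF-CEM-C7-14, a clone of human leukaemic T cells from acute lymphoblastic leukaemia. Every culture was grown in RPMI-1640 with charcoal-stripped serum, from which most steroid has been taken out. Cells were harvested without hormone at 0 h (3 arrays), or after 2 h (3 arrays) or 10 h (2 arrays) in 1 µM dexamethasone, a synthetic glucocorticoid. The arrays of a time are labelled biological replicates, without saying whether each came from a culture of its own, so p-values cover the spread among these arrays, which may be technical. The treated times have no vehicle arrays here, so hormone and time in that medium cannot be told apart, and all values come from a single clone.

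Members of this family carry the BIR domain, a zinc-binding fold that in several of them docks onto caspases or onto caspase-activating proteins. XIAP is the member that blocks the active sites of caspases directly. BIRC2 and BIRC3, also called cIAP1 and cIAP2, are ubiquitin ligases of the TNF receptor complex that promote canonical NF-κB signalling and restrain the non-canonical branch, and BIRC3 is itself a classical NF-κB target gene. BIRC5, or survivin, works mainly in mitosis as a subunit of the chromosomal passenger complex. BIRC6 is a very large protein that joins a BIR domain to a ubiquitin-conjugating domain. Glucocorticoids kill sensitive lymphoid cells through the mitochondrial route to caspases, the enzymes that XIAP blocks.

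BIRC3 and BIRC2 lie next to each other on chromosome 11, and their promoters are shown because BIRC3 has the largest 10 h difference of the 15 probe sets and BIRC2 is its closest relative. The RefSeq promoter table (GRCh38.p14) gives 250 bases before to 50 bases after a start site, and it held 8 such windows for 4 of the 5 genes, with BIRC5 the gene not matched. Both windows are on the plus strand, 5′ to 3′, and capitals mark matches to the κB consensus, the motif of NF-κB proteins.
BIRC3, chr11:102317234-102317533: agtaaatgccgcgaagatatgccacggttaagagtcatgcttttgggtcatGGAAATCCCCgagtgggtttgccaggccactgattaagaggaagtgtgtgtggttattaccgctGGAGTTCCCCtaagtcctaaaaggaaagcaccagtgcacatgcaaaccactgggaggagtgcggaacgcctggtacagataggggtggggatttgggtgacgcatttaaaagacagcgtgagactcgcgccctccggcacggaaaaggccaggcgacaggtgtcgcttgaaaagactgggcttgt
BIRC2, chr11:102346964-102347263: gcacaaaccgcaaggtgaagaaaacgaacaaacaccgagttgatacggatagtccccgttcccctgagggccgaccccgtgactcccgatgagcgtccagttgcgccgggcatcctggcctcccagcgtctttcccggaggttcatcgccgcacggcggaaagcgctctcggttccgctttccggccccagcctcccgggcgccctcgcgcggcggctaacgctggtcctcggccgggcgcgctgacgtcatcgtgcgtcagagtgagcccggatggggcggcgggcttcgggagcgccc

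The BIRC3 window held 2 matches to the κB consensus, whose plus-strand letters, as printed, are GGAAATCCCC and GGAGTTCCCC, 199 and 135 bases before the start site. The consensus itself reads along the minus strand there. Of 35116 promoter windows of the same length in the table, 5.91% held at least 1 match and 1.26% held 2 or more. Neither of the BIRC2 windows (the other starts at a downstream site) and none of the 3 XIAP windows held a match, while 1 of the 2 BIRC6 windows held 1. The full palindromic glucocorticoid response element was in none of the 8 windows and in 0.00285% of all windows. The single arm TGTTCT of that element was in 1 XIAP window and in 14.8% of all windows. The cell cycle homology motif TTTGAA was in none of the 8 and in 15.2% of all. Motifs were searched on both strands, and a match or its absence says only which letters a window holds.

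The arrays gave log2 expression between medians of 4.68 and 5.01, and the 3 arrays with the lowest medians were 0 h replicate 2, 2 h replicate 3 and 10 h replicate 1, 1 from each time. Bacillus control probe sets reached 4.73 at most, and 14 of the 15 probe sets had a mean above that value. The exception was 206537_at of XIAP, at 4.04. Of 21 measured T-lineage markers 19 had a mean above 4.73, CD3D and LCK among them, and CD2 and DNTT did not. The summed T-lineage level was between 14.34 and 14.59 on the log2 scale over all arrays. In an RNA pool, fewer cells with a transcript and less of it per cell cannot be told apart.

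BIRC3 was higher at 10 h than at 0 h on its probe set, by 2.35 ± 0.29 (SE) on the log2 scale or 5.11-fold. The untreated arrays read 5.98, 5.47 and 5.54. After 2 h the arrays read 6.56, 6.18 and 5.35, and after 10 h they read 7.82 and 8.21. Both 10 h arrays lay above all 6 of the earlier arrays. The 2 h arrays were split, with 2 above every untreated array and the third, replicate 3, below all of them.

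The untreated mean was 5.66 ± 0.27 (SD, n = 3). It compared with means of 6.03 ± 0.62 (SD, n = 3) after 2 h and, after 10 h, 8.02 ± 0.28 (SD, n = 2). The difference was 0.37 ± 0.26 (SE) at 2 h against 0 h and 1.99 ± 0.29 (SE), or 3.97-fold, at 10 h against 2 h. Across the array, 24 of 54613 probe sets rose at least as much at 10 h against 0 h, a share of 0.0439%. From 2 h to 10 h 14, or 0.0256%, rose at least as much. At 2 h against 0 h 910 probe sets did, or 1.67%. Each count includes the BIRC3 probe set itself and leaves out falls of that size. Arrays at 10 h lay above all untreated arrays for 5.92% of all probe sets. These differences share arrays, and the 10 h values rest on 2 of them.

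The 2 h value of BIRC3 moved with single arrays. Without 2 h replicate 3 it was 0.71, and without 2 h replicate 1 it was 0.10. Between the arrays of low median it was −0.12, from 0 h replicate 2 to 2 h replicate 3, and among the other 5 arrays it was 0.61. The 10 h difference was 2.35 between the arrays of low median and 2.46 among the others, with 1 array at 10 h in each set. BIRC3 was chosen on its 10 h difference in these same arrays, so these values are a description only. Of the other lineages, summed epithelial and stromal markers read 9.01 to 9.83 at 0 h and 9.27 to 9.38 at 10 h. Of these markers 4 of 7 had a mean above 4.73. Myeloid markers (3 of 6 above 4.73) and erythroid markers (1 of 2) also overlapped between those times in sum. Summed B-cell markers were higher at 10 h (9.48 to 9.60) than at 0 h (8.97 to 9.26), and 4 of 6 had a mean above 4.73. CD79A, a B-cell receptor chain also found in some T-cell leukaemias, went from 8.50 to 9.19, while MS4A1 and BLNK averaged 4.09 and 2.29. Sums were taken on the linear scale, so CD79A makes up most of the B-cell sum. The remaining B-cell markers are not listed here. What part these lineage markers have in the BIRC3 values was not tested.

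**Figure D1:**
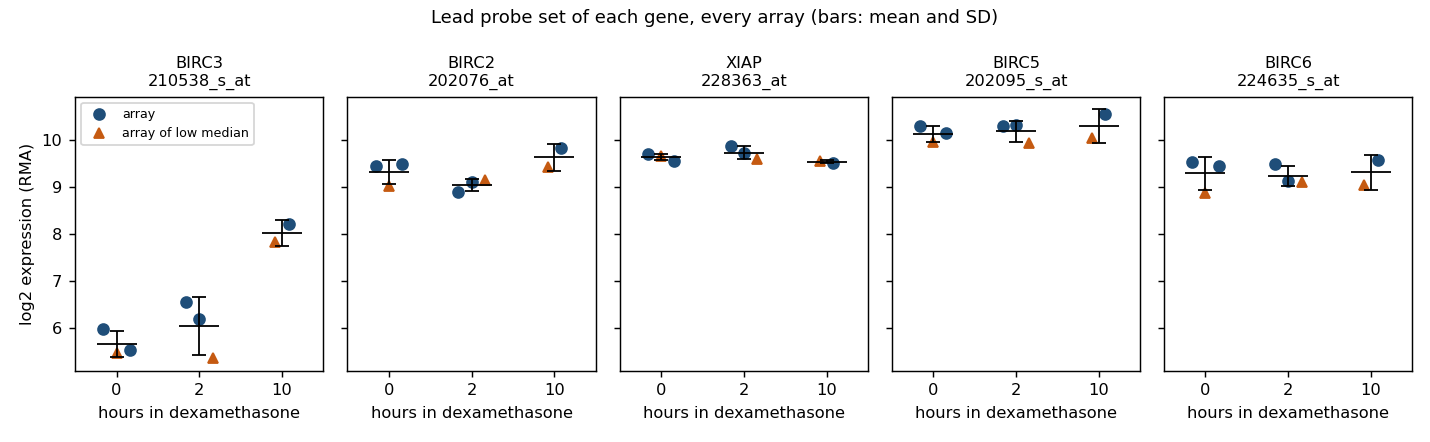
Log2 expression (vertical axis, RMA values) of the lead probe set of each gene against hours in dexamethasone (horizontal axis), with every array as a point, triangles for the 3 arrays with the lowest medians, and the mean and SD as bars. BIRC3 reads 7.82 and 8.21 at 10 h against 5.47 to 5.98 at 0 h, while group means of the other 4 genes differ by at most 0.59 between times. Levels cannot be compared from one panel to another.

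None of the other 14 probe sets passed the limma test in any comparison, which asked for an adjusted p under 0.05 (Benjamini-Hochberg, all 54613 probe sets). The share of all probe sets that passed was 0.00916% at 2 h against 0 h (5 probe sets), 0.251% at 10 h against 0 h (137) and 0.108% at 10 h against 2 h (59). At an unadjusted p below 0.05, 0 of the 14 passed in either comparison with 0 h and 1 passed at 10 h against 2 h, where 1.1%, 2.68% and 2.53% of all probe sets did. The 14 differences ran from −0.35 to 0.30 at 2 h against 0 h, with a median of −0.0020 against 0.01 over all probe sets. At 10 h against 0 h they ran from −0.48 to 0.33, with a median of 0.04 against −0.03 over all. Their 95% intervals reached from −1.06 to 0.80 at 10 h, so changes up to those sizes were not resolved on the probe sets concerned. A probe set that did not pass is therefore not shown to be unchanged.

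**Figure D2:**
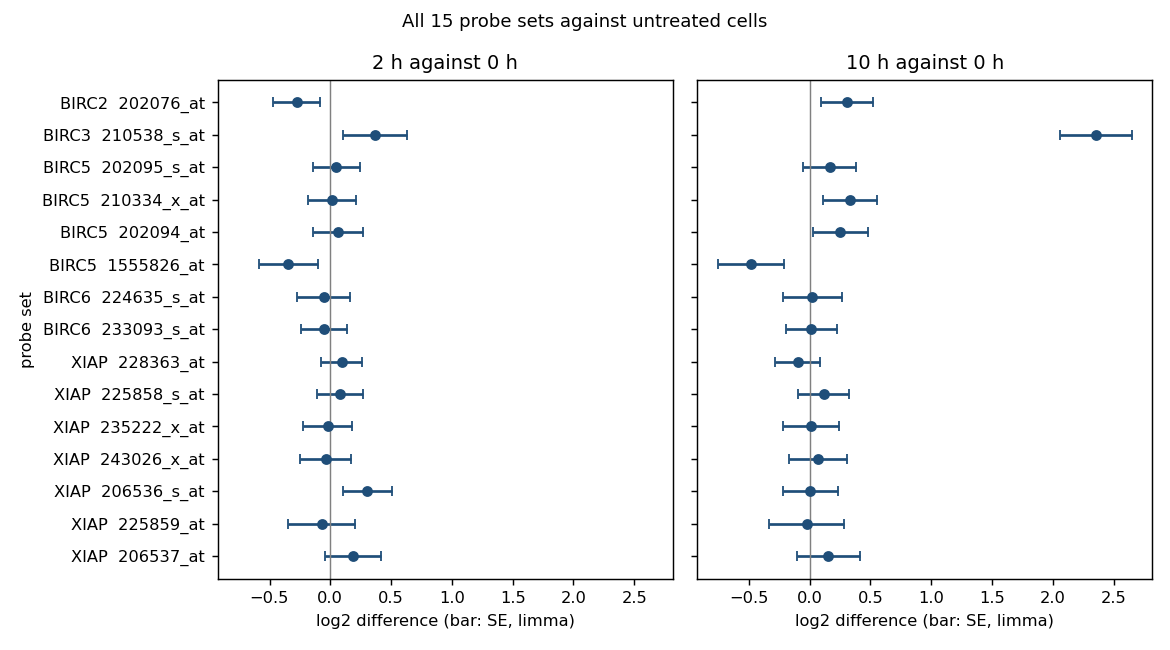
Log2 difference from untreated cells (horizontal axis, with the limma SE as a bar) for all 15 probe sets (vertical axis), at 2 h on the left and 10 h on the right. BIRC3 stands at 2.35 at 10 h, and the other probe sets lie between −0.48 and 0.33.

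BIRC2, the close relative of BIRC3, was measured by 202076_at. It read 9.43, 9.02 and 9.50 at 0 h, 8.88, 9.10 and 9.14 at 2 h, and 9.43 and 9.82 at 10 h. The 2 h arrays overlapped the untreated ones, and both 10 h arrays lay above all 3 arrays at 2 h. The differences were −0.28 ± 0.19 (SE) at 2 h and 0.31 ± 0.21 (SE) at 10 h against 0 h (limma adjusted p = 1.00 for both). Among the arrays of low median and among the other 5, the 2 h difference was 0.12 and −0.48, and the 10 h difference 0.41 and 0.36. With a single array left out of the 8, the 10 h difference was 0.11 without 10 h replicate 2, 0.51 without 10 h replicate 1 and 0.16 without 0 h replicate 2. From 2 h to 10 h the difference was 0.59 ± 0.21 (SE; 1.50-fold, unadjusted p = 0.0151, adjusted p = 1.00 in limma), the single comparison of the 14 probe sets with an unadjusted p below 0.05. Without 10 h replicate 2 it was 0.39.

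Around this gene pair, the nearest protein-coding genes were taken after the values of BIRC3 had been seen. At 10 h against 0 h TMEM123, beyond BIRC2, had a log2 difference of 0.07 ± 0.27 (SE) from an untreated level of 10.6. On the other side YAP1, a Hippo pathway coactivator, had 0.08 ± 0.25 (SE) at an untreated level of 2.91, below the Bacillus controls. CEP126, CFAP300, MMP7 and MMP20 also lay below those controls, between 2.86 and 3.49 at 0 h. None of these neighbours passed the test in any comparison.

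XIAP, the direct caspase inhibitor, had the most probe sets, with means over all arrays from 4.04 to 9.65. The brightest, 228363_at, read 9.70, 9.65 and 9.56 at 0 h, 9.87, 9.72 and 9.59 at 2 h, and 9.56 and 9.52 at 10 h. Its 10 h arrays lay below every earlier array, by a narrow margin, with a log2 difference of −0.10 ± 0.19 (SE) against 0 h and −0.19 ± 0.19 (SE) against 2 h. On 206536_s_at the values were 7.63, 7.01 and 6.95 at 0 h, 7.46, 7.62 and 7.42 at 2 h, and 7.30 and 7.10 at 10 h. There the 10 h arrays again lay below all 2 h arrays, and overlapped the untreated ones.

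Over its 7 probe sets, the XIAP differences ran from −0.07 to 0.30 at 2 h and from −0.10 to 0.15 at 10 h against 0 h, with 3 and 2 of them negative. All had an adjusted p of 1.00 in limma. The 10 h intervals of the 7 spanned −0.69 to 0.70. Some of these probe sets carry the x suffix that the manufacturer gives where probes match other transcripts, and the RefSeq gene table lists XIAP pseudogenes, so their signal may not be from XIAP alone.

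Counting arrays that did not overlap between times, none of the 14 probe sets separated 2 h from 0 h, where 4.13% of all probe sets did. One, 228363_at of XIAP, separated 10 h from 0 h, where 12.1% of all did. The step from 2 h to 10 h separated 3 of the 14, BIRC2 upwards and 2 of XIAP downwards, where 13.4% of all did. By direction, 6.19% of all probe sets lay lower at 10 h than at 0 h, 5% higher at 10 h than at 2 h and 8.35% lower. None of these 4 cases passed the test.

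BIRC5, survivin, read 10.29, 9.96 and 10.15 at 0 h on 202095_s_at, its brightest probe set. The 2 h arrays read 10.30, 10.31 and 9.92 and the 10 h arrays 10.04 and 10.55, so that the times overlapped throughout. Its log2 difference was 0.05 ± 0.20 (SE) at 2 h and 0.17 ± 0.22 (SE) at 10 h against 0 h (limma adjusted p = 1.00 for both). Of the other probe sets, 210334_x_at had 0.33 ± 0.22 (SE) and 202094_at had 0.25 ± 0.23 (SE) at 10 h. The fourth, 1555826_at, had −0.48 ± 0.27 (SE), the lowest of the 14, and an unadjusted p of 0.0949. Its arrays read 6.99, 6.10 and 6.57 at 0 h, 6.51, 6.28 and 5.83 at 2 h and 5.83 and 6.31 at 10 h, which overlapped. The 4 survivin probe sets thus differed in sign, and none passed in any comparison (adjusted p = 1.00).

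BIRC6 read 9.54, 8.88 and 9.44 at 0 h, 9.48, 9.11 and 9.10 at 2 h, and 9.04 and 9.57 at 10 h on 224635_s_at. The lowest array at 0 h and the lower of the pair at 10 h were both among the arrays with the lowest medians. Differences against 0 h were −0.06 ± 0.22 (SE) at 2 h and 0.02 ± 0.24 (SE) at 10 h. Its other probe set, 233093_s_at, had −0.05 ± 0.19 (SE) and 0.01 ± 0.21 (SE) at the same times. All 4 values had an adjusted p of 1.00 in limma, and the 10 h intervals of both probe sets spanned −0.50 to 0.54.

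Genes that act with this family were taken from 9 lists, with 145 of 153 genes measured, each by its brightest probe set. In the 10 h comparison with untreated cells, 0.319% of 19776 genes passed by that probe set, 0.308% higher and 0.0101% lower. At 2 h, 4 genes or 0.0202% passed, none of them on these lists.

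Antagonists that release caspases from these inhibitors were measured for all 5 listed genes, and none passed at 10 h (median log2 difference −0.05, against −0.02 over all genes). DIABLO, also called SMAC, had −0.05 ± 0.21 (SE), HTRA2 −0.12 ± 0.22 (SE), GSPT1 −0.24 ± 0.19 (SE) and SEPTIN4 0.14 ± 0.22 (SE). Of the 2 further BIR-domain genes, NAIP had −0.17 ± 0.21 (SE) and BIRC7 0.10 ± 0.25 (SE) from a mean below the Bacillus controls, and neither passed. Among 10 caspases and their cofactors none passed either, with a median of 0.14. CASP8, the initiator caspase of death receptors, had 0.71 ± 0.23 (SE; limma adjusted p = 0.845), and its 10 h arrays lay above all untreated ones. With array weights its difference was 0.47. CYCS, cytochrome c, had −0.27 ± 0.22 (SE) and CFLAR, an inhibitor of CASP8, had 0.27 ± 0.23 (SE).

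The TNF receptor complex in which BIRC2 and BIRC3 act had 23 measured genes, none of which passed at any time. Differences at 10 h were negative for 15 of the 23, with a median of −0.12, where 55.4% of all genes were negative. TNFAIP3, the A20 protein that ends NF-κB signalling and is also an NF-κB target, had −0.30 ± 0.21 (SE), and TNFRSF1A, a TNF receptor, had −0.22 ± 0.20 (SE). TRAF1, a partner of BIRC2 and BIRC3 and likewise an NF-κB target, had −0.21 ± 0.20 (SE).

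Among 16 measured NF-κB subunits, inhibitors and kinases 1 passed the test at 10 h, upwards. By sign alone, 10 of the 16 differences were positive and 6 negative. NFKBIA, which encodes IκBα and is both an NF-κB and a glucocorticoid target, had an untreated mean of 8.58 ± 0.49 (SD, n = 3). It stood at 9.34 ± 0.30 after 2 h (SD, n = 3) and 9.93 ± 0.08 after 10 h (SD, n = 2). Its 10 h log2 difference was 1.35 ± 0.26 (SE; limma adjusted p = 0.0467). The call rested on 1 of 2 probe sets, the other at −0.39. It was lost in 10 of 19 alternatives, with the replicate block (adjusted p = 0.0985) and the omission of replicate 1 (0.0697) or 3 (0.123) at 0 h, or of either 10 h array (0.527 and 0.388), among them. Averaging its probe sets gave 0.48. The median of the 16 was 0.03. MAP3K14, the NIK kinase of the non-canonical branch that BIRC2 and BIRC3 restrain, had −0.44 ± 0.26 (SE), NFKB1 −0.23 ± 0.21 (SE) and NFKB2 0.16 ± 0.21 (SE).

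Of 28 other measured NF-κB targets, 1 passed the test at 10 h, upwards. By sign alone, without a test, 5 differences were positive and 23 negative, with a median of −0.11 (82.1% negative, against 55.4% of all genes). Only 19 of the 28 had a mean above the Bacillus controls, and of those 15 were negative, with a median of −0.15. The gene that passed was CD69, a receptor of early T-cell activation, with 5.60 ± 0.30 in untreated cells (SD, n = 3) and 7.47 ± 0.66 after 10 h (SD, n = 2). The log2 difference was 1.87 ± 0.35 (SE; limma adjusted p = 0.0353). That call was lost in 6 of 19 alternatives, among them those without 0 h replicate 1 (adjusted p = 0.112), 0 h replicate 3 (0.140) or 10 h replicate 1 (0.724), and those with median centring (0.184) or quantile normalization (0.168). LTB, lymphotoxin beta, had −1.04 ± 0.21 (SE; limma adjusted p = 0.0569) and MYC −1.01 ± 0.20 (SE; limma adjusted p = 0.0569), both with 10 h arrays below all untreated arrays and just outside the threshold. They passed in 7 and 9 of the 19 alternatives. CD83 had −0.38 ± 0.19 (SE) and IER3 −0.42 ± 0.24 (SE). Against 2 h, LTB fell by 1.24 (SE 0.21; limma adjusted p = 0.0259), the only list gene that passed in that comparison, where 0.137% of all genes did, 0.131% higher and 0.00506% lower. This call was lost in 9 of 19 alternatives, among them the replicate block (adjusted p = 0.0949) and those without 0 h replicate 1, any 2 h array or any 10 h array, over which its difference stayed between −1.53 and −0.95. Averaging its probe sets gave −0.62.

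**Figure D3:**
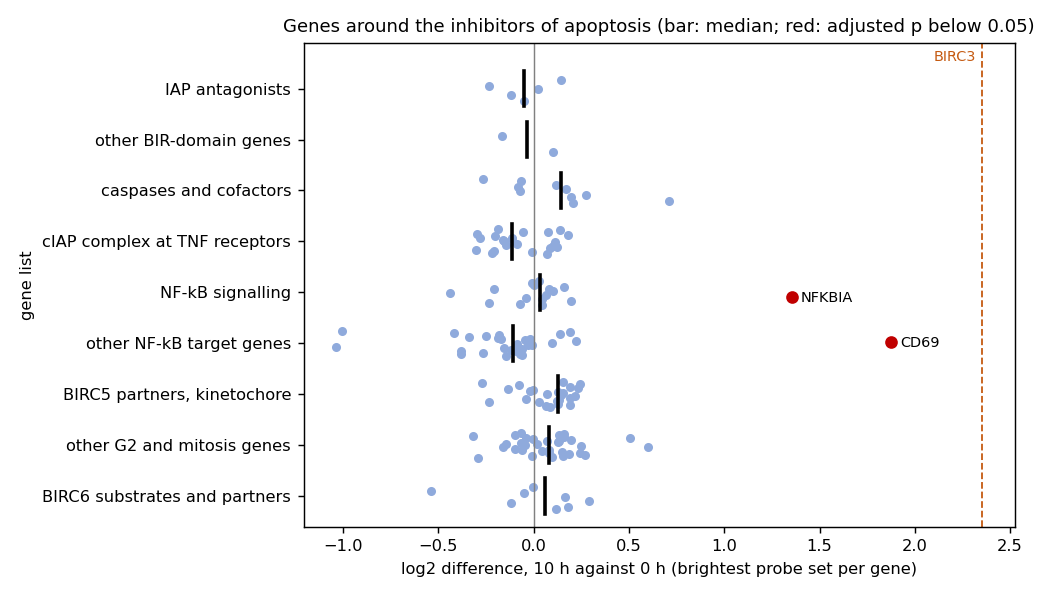
Log2 difference at 10 h against 0 h (horizontal axis) of each measured gene of the 9 lists (vertical axis), by its brightest probe set; the black bar is the median of a list and red marks an adjusted p below 0.05. NFKBIA at 1.35 and CD69 at 1.87 are the red points, and the dashed line is BIRC3 at 2.35.

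Partners of survivin came next. Of 24 genes of the chromosomal passenger complex and the kinetochore none passed at any time, with a median of 0.13 at 10 h and a range from −0.27 to 0.25. AURKB, the kinase of that complex, had 0.08 ± 0.20 (SE), CDCA8, its borealin subunit, 0.15 ± 0.21 (SE), and INCENP 0.03 ± 0.28 (SE), 3 genes named for their part in the complex after the values were seen. TTK, a spindle checkpoint kinase, had −0.23 ± 0.19 (SE) and NUF2, a kinetochore protein, 0.25 ± 0.20 (SE). Of 33 other genes of G2 and mitosis none passed, with a median of 0.08. CKS2, a subunit bound to cyclin-dependent kinases, had 0.51 ± 0.20 (SE) with 10 h arrays above all untreated ones, DLGAP5 had 0.60 ± 0.26 (SE) and CCNA2, cyclin A2, had −0.32 ± 0.20 (SE). The DLGAP5 value was 0.17 without 10 h replicate 1 and 1.03 without 10 h replicate 2. Among 8 substrates and ubiquitin partners of BIRC6 none passed. UBA6, the activating enzyme that loads BIRC6 with ubiquitin, had −0.54 ± 0.24 (SE; limma adjusted p = 1.00), the lowest of them, and USP8, a deubiquitinase, had 0.29 ± 0.22 (SE). The UBA6 value was −0.15 without 10 h replicate 1, −0.93 without 10 h replicate 2 and −0.21 with its probe sets averaged.

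The genes whose profile lay nearest to BIRC3 were found by centring each probe set on its untreated mean and taking the root mean square difference over all 8 arrays, among 23665 probe sets above the Bacillus controls. ISG20, an interferon-inducible exonuclease, was nearest at 0.24 log2 units, with differences of 0.47 ± 0.20 (SE) at 2 h and 2.50 ± 0.22 (SE) at 10 h. ITGA6, integrin alpha 6, followed at 0.24, with 0.52 ± 0.22 (SE) and 2.07 ± 0.24 (SE). USP53 lay at 0.31, MACROD2, an ADP-ribosyl hydrolase, at 0.31, and BCL2L11, which encodes the pro-apoptotic protein BIM, at 0.34. The BCL2L11 probe set concerned, 225606_at, had 0.86 ± 0.21 (SE) at 2 h and 2.39 ± 0.24 (SE) at 10 h, against 0.37 and 2.35 for BIRC3.

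A close profile on 1 probe set did not extend to every probe set of these genes. The lowest 10 h difference was 2.50 over the 2 probe sets of ISG20 and 1.62 over the 2 of ITGA6. It was 0.21 over the 4 of USP53, −0.14 over the 4 of MACROD2 and 0.14 over the 7 of BCL2L11. Around BIRC5 the nearest profiles were ZNF254, CTNS, IDS, TJAP1 and DCTN5, at 0.05 log2 units each, all within 0.22 of their untreated mean at 10 h. The hormone-responsive reference genes TSC22D3, FKBP5 and NR3C1 had 10 h differences of 4.30 ± 0.22 (SE), 2.16 ± 0.22 (SE) and 1.49 ± 0.24 (SE), by their brightest probe sets. With the probe sets of each gene averaged, TSC22D3 had 1.83 and FKBP5 2.48.

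**Figure D4:**
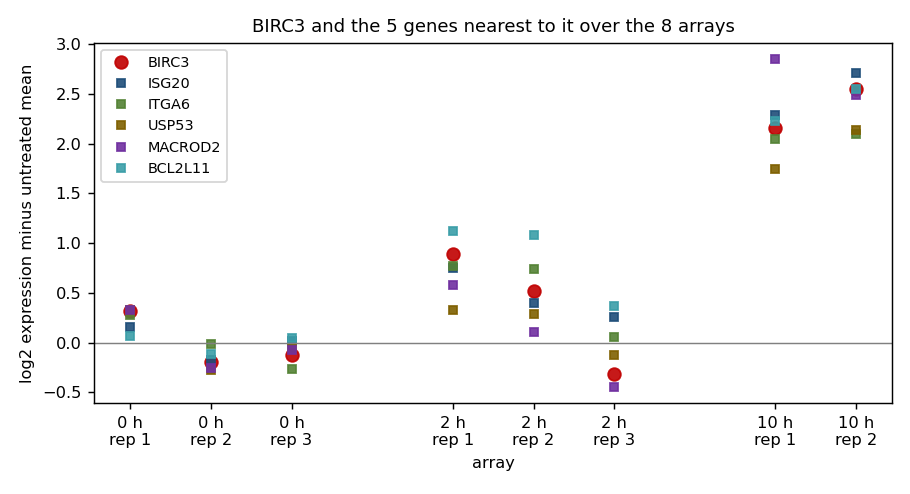
Log2 expression minus the untreated mean (vertical axis) of BIRC3 (large circles) and the 5 genes nearest to it (small squares) on each of the 8 arrays (horizontal axis, rep for replicate). The 5 were chosen for closeness to BIRC3 over these same arrays, so their likeness to it comes from the choice. All 6 lie within 0.33 of 0 at 0 h and at 1.75 or higher on both 10 h arrays. BIRC3, USP53 and MACROD2 are below their untreated means on 2 h replicate 3.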

How the data were processed

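Biotin-labelled target from total RNA was hybridised to 8 arrays, 1 colour each, per the labels. The authors deposited log2 values for each probe set, made with RMA per the submitters' processing notes. Its version, and whether all arrays were processed together, are not given in the sources used here. Groups came from the time in each label. From 54675 probe sets 62 controls were left out. Probe sets were named from the supplied platform annotation, and list genes were matched to it through the RefSeq gene table (GRCh38.p14).

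The groups were fitted together in limma 3.58.1 under R 4.3.3, using lmFit and eBayes, 5 residual degrees of freedom and two-sided tests. All probe sets were tested, because that of BIRC3 has no symbol. Differences carry the moderated SE, and the call was a Benjamini-Hochberg adjusted p below 0.05. The fit was tested on simulated data. The number of arrays limits the precision. Same-numbered replicates were not paired: in 1 of 7 pairs their deviations correlated above 0.1 (range −0.36 to 0.37).

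The members and lists were chosen with earlier results of these data known. Genes named were all called list members, up to 4 further members of each list with the smallest p at 10 h, the 5 nearest profiles of BIRC3 and BIRC5, and 3 hormone-responsive genes. Alternatives covered samples, block, filter, scaling, variances, array weights, the unit tested and each array left out. The block and the omission for the 3 arrays with the lowest medians were chosen after seeing the data.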

Additional observations from a re-analysis of the deposited data

How the results depend on the processing

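Over 19 alternatives the 10 h difference of BIRC3 stayed between 2.14 and 2.55. Its 10 h against 2 h difference stayed between 1.65 and 2.25, and its 2 h difference between 0.10 and 0.71. Some of the 19 could not move a difference of a gene with a single probe set. These were the filter, the variances, the unit tested, the fit of only the times compared, and the omission of an array from another time. BIRC2, XIAP, BIRC5 and BIRC6, by their lead probe sets, passed in none of the 19 in any comparison. The number of probe sets called moved more. Against 5 at 2 h, 137 at 10 h and 59 at 10 h against 2 h, trended robust variances gave 10 at 2 h and 92 at 10 h against 2 h, and array weights 14 at 2 h. A single probe set per gene gave 71 at 10 h and 34 at 10 h against 2 h, and averaged probe sets gave 1, 74 and 28 in the 3 comparisons, over fewer features tested. Blocking on the set of 3 low-median arrays gave 215 and 92 in the comparisons of 10 h with 0 h and 2 h, and leaving those arrays out gave 1, 34 and 1 with fewer samples. Leaving out an array in turn gave 4 to 5, 70 to 147 and 14 to 70. With the replicate block the counts were 6, 108 and 49, and BIRC3 had 0.37, 2.15 and 1.79. Of the calls of NFKBIA, CD69 and LTB, that block ended those of NFKBIA and LTB.

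Small differences changed sign without a call, and the cause was not tested. At 2 h BIRC5 had −0.0054 with quantile normalization and −0.055 with averaged probe sets, and −0.036 to 0.18 with an array left out, and BIRC6 −0.26 to 0.070. At 10 h against 0 h XIAP had 0.033 with averaged probe sets, BIRC6 −0.16 with array weights, and with an array left out BIRC5 ran from −0.087 to 0.42 and BIRC6 from −0.24 to 0.28. At 10 h against 2 h, BIRC5 ran from −0.14 to 0.37 and BIRC6 from −0.19 to 0.34. Only 2 arrays at 10 h, a single BIRC3 probe set and signal near the controls for 206537_at limit what these data can show.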
